A study of Dugesia japonica with 16 samples.

Results

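The 150 components with the most assembled transcripts were examined in a transcriptome of the freshwater planarian *Dugesia japonica*. A component is the part of an identifier that stands before its _seq number, so all transcripts that the assembler kept together carry the same component name. The transcripts listed for each component were counted, and the 150 components with the highest counts were taken, ties being settled by the alphabetical order of the identifier. They are 150 of 16873 components and hold 5405 of 44857 transcripts, which is 12% of the transcripts with 0.595% of the summed abundance. The choice used the number of listed transcripts and no measured level.

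When a transcriptome is built from short reads without a genome, the assembler joins overlapping reads into a graph and reports each supported path through it as a transcript. A component with many transcripts is thus a graph with many alternative paths, which can come from alternative splicing, allelic differences, repeats, close gene copies or sequencing errors. Planarians regrow a lost head from neoblasts, their dividing stem cells, and their genomes are known to be rich in repeats. The identifiers used here carry no gene names, so neither functions of the components nor marker genes of the tissue are described, and no sequence is shown.

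Heads were cut off worms that had gone without food for 7 days at a temperature of 20 °C. The posterior pieces then regenerated for 48 h in vehicle (0.1% ethanol) or in 10 nM of 1 of 3 compounds, MCTR3, PCTR3 and RCTR3, and each of these groups has 4 libraries. The 3 compounds are cysteine-carrying lipids that derive from docosahexaenoic acid and belong to the maresin, protectin and resolvin conjugates in tissue regeneration. The sources used here do not give strain or age, how many worms went into a library, or how much ethanol came with the compounds. The sample titles number vehicle and MCTR3 libraries from 1 to 8 and those of PCTR3 and RCTR3 from 9 to 16, so for comparisons across these sides treatment and position in the numbering cannot be told apart. The labels do not say that the 4 libraries came from separate worm batches, so the spread that p-values are measured against may be technical. In whole pieces, a change in the number of cells of a type and a change in RNA per cell cannot be told apart.

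Levels are in TPM, a relative abundance corrected for transcript length, and the level of a component is the sum over its transcripts. Read depth is unknown, and the 16 libraries summed to between 926.1 and 1129 kTPM (units of 1000 TPM). Reads that fit several transcripts of one component could be divided among them by the authors' quantification, so values of single transcripts are uncertain, while sums add over that division.

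The 150 components ranged from 23 to 108 listed transcripts with a median of 32. 19 of them had more than 50 transcripts and 67 had 30 or fewer. 13 components of the file had exactly 23 transcripts and 4 of them are members by alphabetical order. The last components inside the limit, comp138912_c0 and comp139040_c0, had mean totals of 15.9 and 14.9 TPM, and the first outside it, comp140282_c0 and comp140853_c4, had 22.1 and 49.8 TPM. The number in the name gave the components a narrow place in the assembly. It lay between 129990 and 146544 and reached 130000 in 149 of 150 members, against 70.7% of all components. No number was shared between members, and 51.3% of members were the first component under their number (c0) against 66.2% of all components. Counting up to the highest _seq number of each member, 1481 of 6886 numbers (21.5%) had no transcript in the file, against 28.9% in the 150 components next in size and 34.5% over all components. 8 members had no number missing. The share of missing numbers contains the number of listed transcripts, by which the members were chosen. Its lower value is therefore not read as a result about them.

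Many listed transcripts did not bring a high level. Mean totals ran from 1.6 to 285 TPM with a median of 24.7, compared with a median of 14.3 over all components. 15 members exceeded 100 TPM and 11 were below 5 TPM. The most abundant member held rank 503 among all components, and 8 of the 150 members (5.33%) were among the 1000 most abundant components, compared with 5.93% of all components. Across the members, Spearman's rho was 0.108 between the number of listed transcripts and the total. Between the total and the count of detected transcripts, those at 1 TPM or more, it was 0.905, with both quantities taken from the same libraries. These are descriptions across 150 components of the same 16 libraries.

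Most transcripts of the members were at or near 0. On average over libraries, 15.8% of their transcripts reached 1 TPM. This share was 25.3% in the 150 components next in size, 44.4% in other components with over 5 transcripts, 67.4% in those with 2 to 5 and 86.5% in those with a single transcript. The median level of a member transcript was 0.0491 TPM, and 704 of the 5405 (13%) were listed at 0 in all 16 libraries, out of 1262 such transcripts in the file. The mean count of detected transcripts per member ran from 0.0625 to 26.6, with a median of 4.72. The highest number was in comp145383_c1, which lists 60 transcripts and had a mean total of 212 TPM. At the other end comp145532_c1 lists 34 transcripts and had a total of 1.60 TPM.

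**Figure D1:**
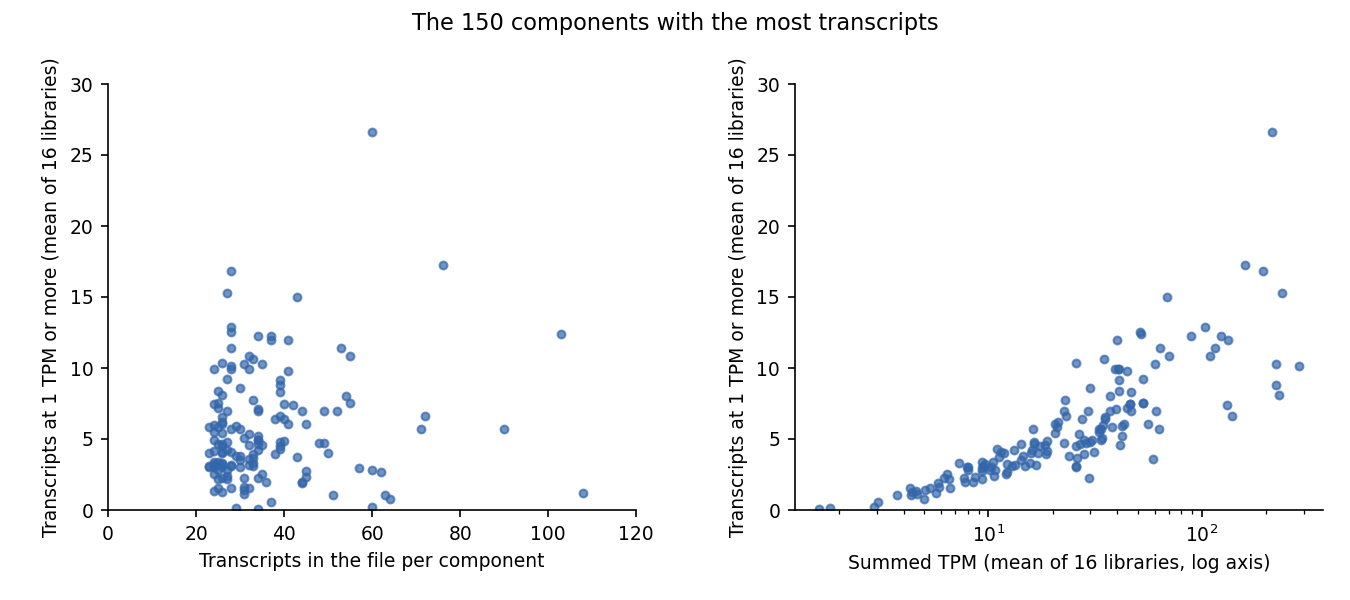
Each point is 1 of the 150 components; the y axes give its detected transcripts (1 TPM or more) as the mean of 16 libraries, the x axis the number of listed transcripts (left) or the mean summed TPM on a log axis (right). The number detected followed the summed TPM (Spearman's rho 0.905) and hardly the number of listed transcripts (0.102).

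Summed over all members, the level overlapped between all groups. The sum was 6079, 6112, 5911 and 5995 TPM in the vehicle libraries, 5909, 5951, 5879 and 6044 with MCTR3, 5732, 5999, 5846 and 6099 with PCTR3, and 5892, 5730, 5955 and 6051 with RCTR3. The means were 6024 ± 90.1, 5946 ± 71.8, 5919 ± 162 and 5907 ± 135 TPM (SD, n = 4), and they differed by less than the range within each group. As sums over the chosen components, these values were described without a test.

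The share of the library's TPM behaved differently. Vehicle had the lowest mean at 0.566 ± 0.0237% and MCTR3 followed at 0.587 ± 0.00703%, while PCTR3 had 0.608 ± 0.0121% and RCTR3 0.620 ± 0.0074% (SD, n = 4). All PCTR3 and RCTR3 libraries, at 0.5959% or more, lay above all vehicle and MCTR3 libraries, at 0.5952% or less. The mean summed TPM of the members ran the other way, from 6024 in vehicle to 5907 with RCTR3. The order of the mean shares thus went with the sum over each whole library, which is the denominator. Its part in the order of single libraries was not tested. Rescaling to a common TPM sum shifts all components alike, relative to vehicle by 0.0727 (MCTR3), 0.129 (PCTR3) and 0.161 (RCTR3) on the log2 scale. The order is therefore not read as a result about the members. Vehicle replicate 4 was the lowest library at 0.5312%.

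The count of detected member transcripts was 878, 866, 832 and 800 in the vehicle libraries, with a mean of 844 ± 35.2. The mean was 849.5 ± 14 for MCTR3, 853.5 ± 12.3 for PCTR3 and 871.75 ± 17 for RCTR3 (SD, n = 4), and all groups overlapped with vehicle. To describe how evenly a component's level is spread, the effective number of transcripts was used, the exponential of the Shannon entropy of the shares. It equals the number of transcripts when all are equal and falls to 1 when a single transcript holds everything. Its median over 132 members, those with at least 5 TPM in every library, was 5.94 ± 0.209 for vehicle, 5.84 ± 0.125 for MCTR3, 6.15 ± 0.262 for PCTR3 and 6.47 ± 0.287 for RCTR3. The 4 RCTR3 libraries, at 6.157 to 6.728, overlapped with vehicle, at 5.707 to 6.211, and lay above MCTR3, at 5.742 to 6.021.

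**Figure D2:**
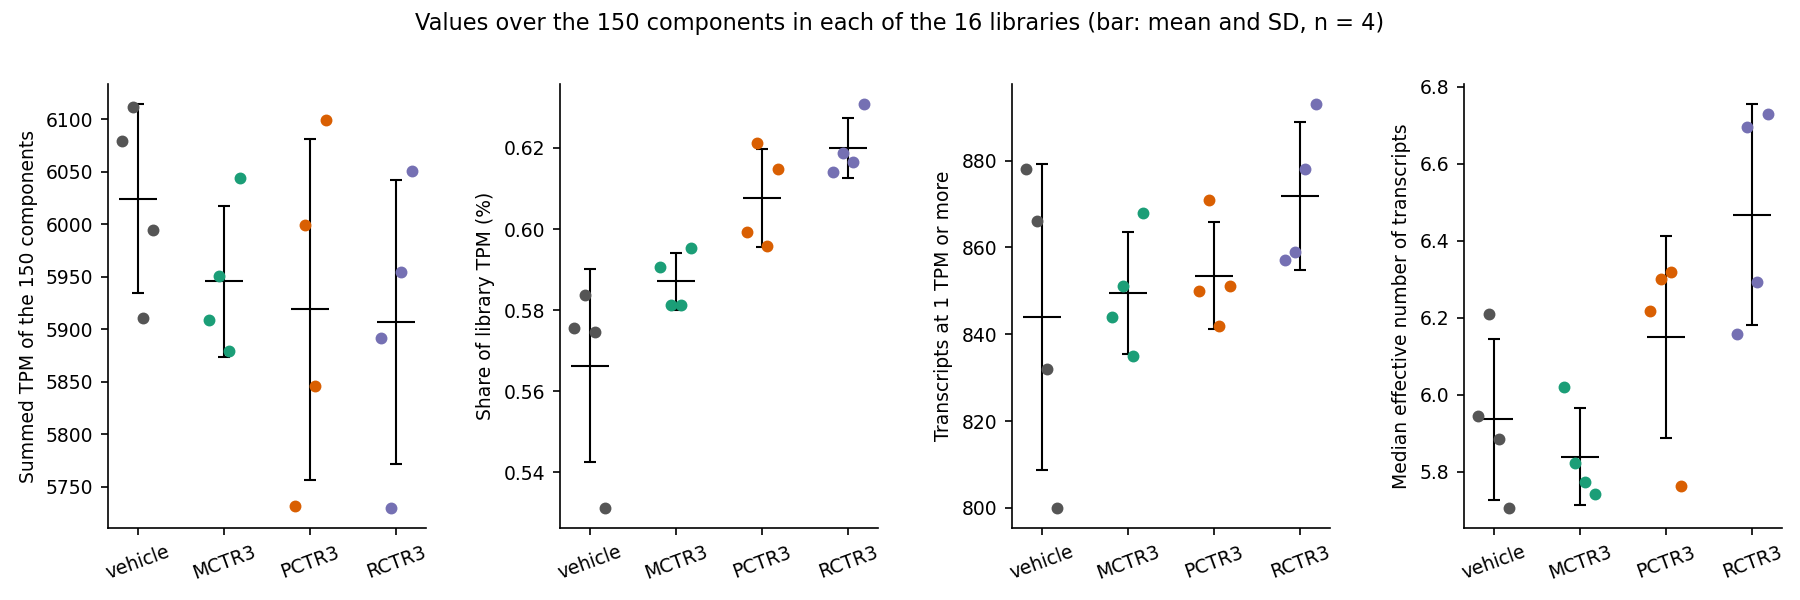
Points are the 16 libraries and bars the mean and SD of 4 libraries; from left to right the panels give the summed TPM of the 150 components, their share of the library's TPM in percent, their detected transcripts (1 TPM or more) and the median effective number of transcripts. The summed TPM overlapped in all groups. The share of library TPM, whose denominator differs between libraries, was higher in all PCTR3 and RCTR3 than in all vehicle and MCTR3 libraries. None of the y axes starts at 0.

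The 5 components with the most transcripts were unlike one another. comp144978_c3 lists 108 transcripts, of which 44 were at 0 in every library, and had a mean total of 5.67 TPM. Its totals were 6.07, 5.76, 4.63 and 5.62 TPM in vehicle and overlapped in all groups. A single one of its transcripts passed the filter used for tests, and it was too low for the analysis of shares. comp141430_c3 lists 103 transcripts. Its total was 44.8, 44.7, 41.3 and 36.5 TPM in vehicle and 44.9, 45.1, 44.6 and 50.7 TPM with MCTR3. PCTR3 gave 56.7, 68.3, 50.1 and 59.2 TPM and RCTR3 66.4, 57.6, 56.9 and 61.1 TPM. All libraries of PCTR3 and RCTR3 were above all vehicle libraries, and the log2(TPM + 1) difference was 0.47 with PCTR3 (SE 0.087, limma adjusted p = 0.000649) and 0.52 with RCTR3 (SE 0.087, limma adjusted p = 0.000198).

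The third, comp145075_c1 with 90 transcripts, stood at 15.6, 16.1, 16.2 and 15.6 TPM in vehicle. It was at 17.7, 16.6, 17.8 and 17.6 TPM with MCTR3, above every vehicle library, but the difference of 0.13 (SE 0.050) did not pass the threshold (limma adjusted p = 0.509). PCTR3 and RCTR3 overlapped with vehicle. On a common TPM sum the RCTR3 difference of comp145075_c1 became 0.16 and passed (limma adjusted p = 0.0318, range over the alternatives 0.0318 to 0.985). The fourth, comp141224_c1 with 76 transcripts, had 166, 172, 154 and 168 TPM in vehicle and overlapped in all groups (limma adjusted p = 0.328 with PCTR3 and 0.394 with RCTR3). comp143519_c2 with 72 transcripts stood at 137, 134, 126 and 108 TPM in vehicle and at 134, 161, 135 and 155 TPM with PCTR3. These groups overlapped, with a difference of 0.21 (SE 0.075, limma adjusted p = 0.0343). With RCTR3 it was 0.18 (limma adjusted p = 0.0613). The PCTR3 call ended with median centring, with the fit limited to the groups compared, and without vehicle replicate 3 or 4 or PCTR3 replicate 2 or 4 (adjusted p from 0.00413 to 0.125). The RCTR3 difference passed on a common TPM sum and without vehicle replicate 1 or 2 or PCTR3 replicate 2 (range 0.0032 to 0.222).

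The pair of most abundant members had far fewer transcripts. comp140066_c4 lists 28 transcripts and had 302, 322, 295 and 288 TPM in vehicle, 260, 269, 273 and 279 TPM with PCTR3 and 253, 249, 285 and 294 TPM with RCTR3. It fell by 0.16 on the log2(TPM + 1) scale with each of them (SE 0.058, limma adjusted p = 0.0408 with PCTR3 and 0.033 with RCTR3), and the RCTR3 libraries overlapped with vehicle. Both calls were narrow: rescaling the libraries to a common TPM sum left differences of -0.029 and -0.0011, and 11 and 6 of 24 alternatives ended them (adjusted p from 0.0289 to 0.712 and from 0.0139 to 0.989). Among these were leaving out vehicle replicate 1 or 2 and replicate 1 or 2 of the compound, and for PCTR3 also replicate 3 of vehicle or PCTR3 and replicate 2 of MCTR3. comp142580_c1 with 27 transcripts had 257, 234, 231 and 186 TPM in vehicle and overlapped in all groups.

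The comparison of each compound with vehicle asks which components differed with it during head regeneration. For PCTR3 the totals of 27 members (18%) rose and those of 26 (17.3%) fell, where 19.2% and 20.1% of all 15762 components tested did so. For RCTR3 the members counted 37 rises (24.7%) and 26 falls (17.3%), where all components had 21.7% and 23%, so the members' shares were near the background. The test was limma on log2(summed TPM + 1) over all components with at least 1 TPM in at least 4 libraries, with adjustment over all of them and a threshold of 0.05, and all 150 members entered it. Both comparisons share the same vehicle libraries.

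The changes of the totals were small. The median log2(TPM + 1) difference over the members was 0.00608 with PCTR3 and 0.0368 with RCTR3, against 0.00645 and 0.00777 over all components, and 1 member exceeded 2-fold in either comparison. When libraries were rescaled to a common TPM sum, the median over all components moved to 0.121 with PCTR3 and 0.149 with RCTR3. The split of the members then became 54 higher and 11 lower with PCTR3 (36% and 7.33%) and 72 higher and 11 lower with RCTR3 (48% and 7.33%). Over all components the same rescaling gave 32.1% higher and 10.4% lower with PCTR3 and 38% and 11.2% with RCTR3, so the file as a whole was skewed the same way. The direction of the smaller changes thus depended on the factor per library, and changes are given here on the deposited scale.

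The member over 2-fold was comp142770_c0, with 26 transcripts. Its total was 13, 14.8, 14.5 and 6.73 TPM in vehicle and 18.3, 12, 16.7 and 11.4 TPM with MCTR3. PCTR3 gave 26.7, 30.4, 27.4 and 23.7 TPM and RCTR3 31.7, 29.7, 22.7 and 28.3 TPM. Every PCTR3 and RCTR3 library was above every vehicle and MCTR3 library. The log2(TPM + 1) difference from vehicle was 1.13 with PCTR3 (SE 0.19, limma adjusted p = 0.000389) and 1.18 with RCTR3 (SE 0.19, limma adjusted p = 0.000181). comp144876_c1 was the other member named for a rise with PCTR3. It stood at 21.3, 21.5, 19.7 and 17.2 TPM in vehicle and 29.2, 39.6, 26.9 and 32.7 TPM with PCTR3, a difference of 0.65 (SE 0.11, limma adjusted p = 0.000452) with no overlap. comp146115_c0 was named for RCTR3, with 6.2, 6.28, 6.51 and 4.79 TPM in vehicle and 11.5, 7.63, 9.57 and 11.2 TPM with RCTR3. The difference was 0.65 (SE 0.13, limma adjusted p = 0.000731), and the groups did not overlap.

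The 2 members with the largest falls were the same with both compounds. comp143113_c1, with 37 transcripts, was at 163, 163, 152 and 203 TPM in vehicle, 113, 95.2, 112 and 107 TPM with PCTR3 and 94.1, 109, 115 and 116 TPM with RCTR3. It fell by 0.66 with PCTR3 (SE 0.088, limma adjusted p = 0.000104) and by 0.64 with RCTR3 (SE 0.088, limma adjusted p = 5.89e-05), with no overlap. comp135155_c5, with 25 transcripts, was low, at 7.36, 8.98, 5.89 and 7.61 TPM in vehicle and 3.78, 2.11, 4.52 and 5.35 TPM with PCTR3. It fell by 0.81 with PCTR3 (SE 0.20, limma adjusted p = 0.00426). Its fall with RCTR3, to 3.49, 5.55, 3.79 and 5.37 TPM, was 0.62 (SE 0.20, limma adjusted p = 0.0185). That call ended on the common sum and without vehicle replicate 2, RCTR3 replicate 1 or RCTR3 replicate 3, with adjusted p between 0.00518 and 0.0628 over the alternatives.

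No member total passed the threshold with MCTR3 against vehicle, nor did any of all 15762 components (limma, 0% called). At an unadjusted p under 0.05 there were 13 members (8.67%). Counts at an unadjusted p, here and below, are given without the share over all features and are not read as results about the members. The lowest p was that of comp137886_c1, at 49.1, 48.3, 44.7 and 49.8 TPM in vehicle and 44, 39.9, 40.5 and 43.3 TPM with MCTR3. These libraries did not overlap, and the difference was -0.19 (SE 0.053, limma adjusted p = 0.509). For MCTR3 against vehicle the 95% interval lay within 2-fold in all 150 members on the log2(TPM + 1) scale and within 1.5-fold in 146 of them (97.3%, against 93.8% of all components). For PCTR3 and RCTR3 it lay within 1.5-fold in 129 and 124 members (86% and 82.7%, against 75.8% and 72.1% of all components).

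The compounds were given at the same dose for the same time and can be set against each other. Between PCTR3 and RCTR3 no total of a member or of any component passed the threshold (limma, 0% called). At an unadjusted p under 0.05 there were 2 members (1.33%), again without the share over all components. The 95% interval of the difference lay within 1.5-fold in 149 of 150 members (99.3%, against 95.3% of all components) and within 2-fold in all 150. The lowest p belonged to comp140870_c4, at 104, 104, 111 and 112 TPM with PCTR3 and 98.2, 96.6, 94.1 and 102 TPM with RCTR3, a difference of 0.14 (SE 0.056, limma adjusted p = 1).

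**Figure D3:**
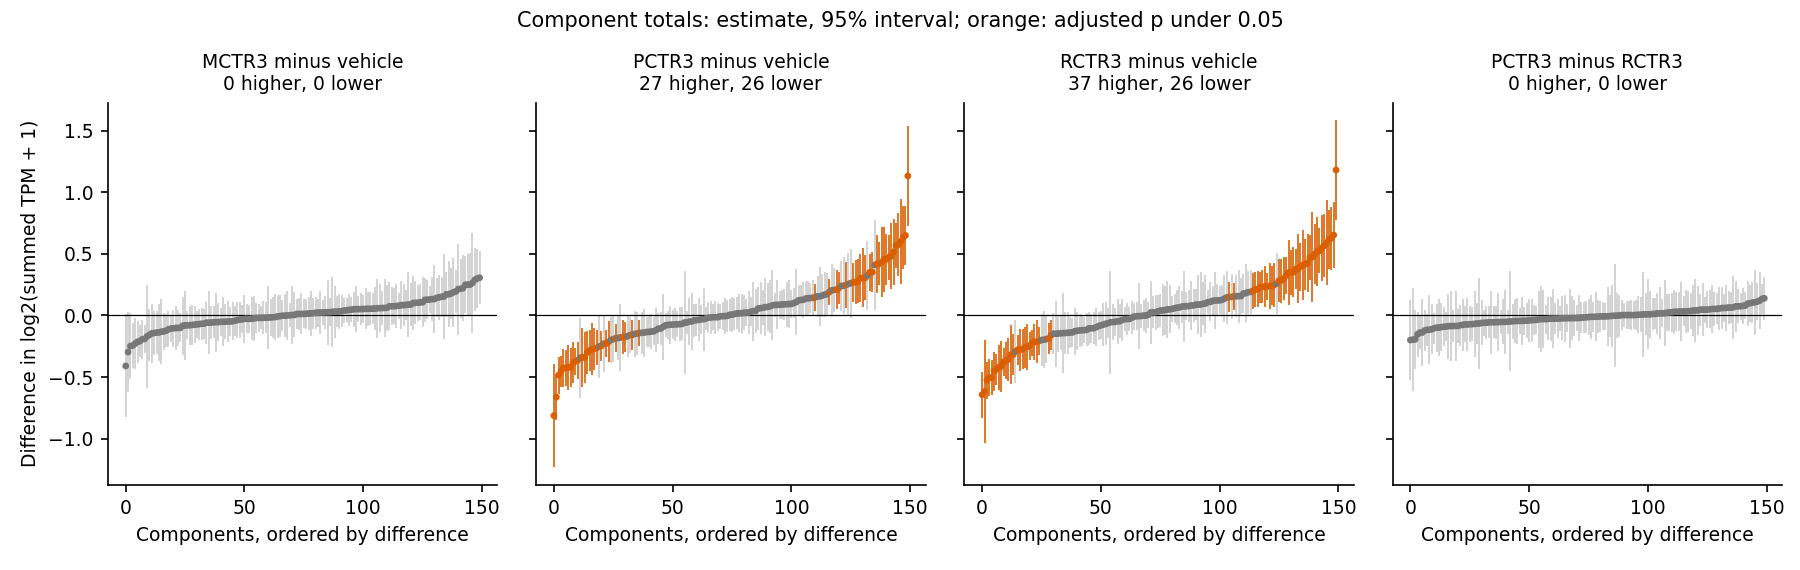
Each panel orders the 150 components by the difference of their totals on the log2(summed TPM + 1) scale; points are limma estimates, lines 95% intervals and orange marks an adjusted p under 0.05. Called components lie at both ends for PCTR3 (27 higher, 26 lower) and RCTR3 (37 higher, 26 lower) against vehicle, and none is called for MCTR3 against vehicle or PCTR3 against RCTR3.

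Between MCTR3 and PCTR3, 14 member totals were higher and 9 lower with MCTR3, against 9.45% and 9.48% of all components. Between MCTR3 and RCTR3, 16 were higher and 17 lower with MCTR3, against 14.3% and 13.5%. On the common sum these splits were 8 higher and 14 lower against PCTR3 (all components 5.63% and 13.2%) and 8 higher and 37 lower against RCTR3 (8.1% and 21.9%). With each library centred on its median they were 17 higher and 7 lower (11.6% and 8.18%), and 18 higher and 14 lower (16% and 12.2%). The 23 calls between MCTR3 and PCTR3 became 14 without MCTR3 replicate 3, 15 without MCTR3 replicate 4 and 8 without PCTR3 replicate 2, and the 33 between MCTR3 and RCTR3 became 20 without RCTR3 replicate 1.

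comp140768_c2, among the most abundant members, stood at 193, 218, 196 and 179 TPM with MCTR3 and at 262, 245, 272 and 333 TPM with PCTR3. Vehicle, at 181, 169, 196 and 198 TPM, overlapped with MCTR3. The MCTR3 level was lower than the PCTR3 level by a log2(TPM + 1) difference of -0.49 (SE 0.086, limma adjusted p = 0.00342). comp142770_c0, described above, was lower with MCTR3 than with PCTR3 (-0.87, SE 0.19, limma adjusted p = 0.00807) and RCTR3 (-0.92, SE 0.19, limma adjusted p = 0.00322).

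comp140007_c0, with 62 transcripts, was higher with MCTR3, at 15, 13.7, 13.5 and 14.5 TPM, than with PCTR3, at 9.34, 9.2, 11.9 and 10.9 TPM, or RCTR3, at 9.1, 10.2, 11.5 and 10.5 TPM. The difference was 0.43 against PCTR3 (SE 0.087, limma adjusted p = 0.00582) and 0.42 against RCTR3 (SE 0.087, limma adjusted p = 0.00278), with no overlap. comp143113_c1 was also higher with MCTR3, at 133, 145, 157 and 139 TPM, than with PCTR3 (0.42, SE 0.088, limma adjusted p = 0.0066). comp145183_c0 was at 83.5, 75.1, 75.8 and 82.4 TPM with MCTR3 and 55.4, 50, 61.9 and 60.6 TPM with RCTR3, a difference of 0.47 (SE 0.072, limma adjusted p = 0.000689). comp142729_c0, at 7.55, 7.58, 7.95 and 8.2 TPM with MCTR3 and 12.7, 13, 9.94 and 10.3 TPM with RCTR3, was lower with MCTR3 by a difference of -0.49 (SE 0.13, limma adjusted p = 0.0128).

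At the level of single transcripts, 1092 of the 5405 member transcripts (20.2%) reached 1 TPM in at least 4 libraries and were tested, with a median of 6 and at most 32 in a member. 3 members had none. PCTR3 had 94 rising (8.61%) and 88 falling (8.06%), against 12% and 12.1% of all 28431 transcripts tested. RCTR3 had 109 rising (9.98%) and 113 falling (10.3%), against 14.4% and 14.4%. On the common sum the splits were 127 higher and 58 lower (all transcripts 19.1% and 6.73%), and 163 higher and 79 lower (23.7% and 7.77%). Centred on the median they were 77 higher and 108 lower (8.84% and 16.1%), and 92 higher and 140 lower (10.2% and 19.5%). The 182 calls with PCTR3 became 118 without PCTR3 replicate 2.

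Levels and replicate spread of these transcripts also differed from the rest, and their part in the share of calls was not tested. The tested member transcripts had a median of 1.9 TPM and a replicate SD of 0.401 on the log2(TPM + 1) scale, against 5.94 TPM and 0.221 for the other transcripts tested, and 3.13% of their values were 0 against 1.65%. At 20 TPM or more, 45.2% of member transcripts and 43.3% of others were called with PCTR3, and 52.4% and 50.2% with RCTR3. From 5 to 20 TPM the shares were 25% and 27.9% with PCTR3 and 33.2% and 32.6% with RCTR3. From 2 to 5 TPM they were 16.1% and 17.1%, and 19.7% and 21.1%. Under 2 TPM they were 11.8% and 8.49% with PCTR3 and 13.6% and 12% with RCTR3. The members' share was the higher value in some classes and the lower in others, and these differences were not tested. From the lowest class to the highest, 568, 274, 208 and 42 of the 1092 tested member transcripts fell in each.

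In some members, transcripts of the same component moved in opposite directions. With PCTR3, 84 of the 150 members had a called transcript, and in 32 of them at least 1 transcript rose and another fell. In 18 of those 32 the total was not called. With RCTR3 the counts were 92, 41 and 23. In the 150 components next in size they were 69, 23 and 15 with PCTR3 and 81, 33 and 22 with RCTR3. A component with more tested transcripts has more ways to enter these counts, and the share over all components is not given. Conversely, 13 of 53 called member totals with PCTR3 and 15 of 63 with RCTR3 had no called transcript, against 17 of 49 and 17 of 55 in the 150 components next in size.

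comp145183_c0, with 32 listed transcripts, held the largest rise and the largest fall of a member transcript. Its transcript comp145183_c0_seq22 stood at 19.7, 19.7, 21.2 and 24 TPM in vehicle and at 15.4, 13.5, 11.8 and 16.1 TPM with MCTR3. With PCTR3 it was at 4.65 and 3.27 TPM in replicates 3 and 4 and below 0.001 TPM in replicates 1 and 2, and with RCTR3 it was below 0.001 TPM in all 4 libraries. The log2(TPM + 1) difference from vehicle was -3.32 with PCTR3 (SE 0.43, limma adjusted p = 0.000366) and -4.47 with RCTR3 (SE 0.43, limma adjusted p = 6.76e-05). The PCTR3 call ended on the deposited log2 scale, with adjusted p between 5.9e-05 and 0.0668 over the alternatives.

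The transcript that rose in the same component was comp145183_c0_seq17. It was at 0.0886, 2.12, 0.354 and 0.00414 TPM in vehicle and 5.23, 5.93, 0.411 and 3.99 TPM with MCTR3. PCTR3 gave 13.5, 11.6, 14.6 and 11 TPM and RCTR3 12.1, 8.85, 11.3 and 10.9 TPM. All PCTR3 and RCTR3 libraries were above all others, and MCTR3 overlapped with vehicle. The differences from vehicle were 3.21 with PCTR3 (SE 0.42, limma adjusted p = 0.000366) and 3.0 with RCTR3 (SE 0.42, limma adjusted p = 0.000227), and 1.51 with MCTR3 (SE 0.42, limma adjusted p = 0.656). The total of comp145183_c0 was 80, 84.3, 82.6 and 81.7 TPM in vehicle and 59.3, 56.4, 69.5 and 59.2 TPM with PCTR3, and fell by 0.43 with PCTR3 (SE 0.072, limma adjusted p = 0.000365) and by 0.53 with RCTR3 (SE 0.072, limma adjusted p = 5.72e-05).

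comp141430_c3_seq25, of the component with 103 transcripts, was at 0.0272, 0.0961, 0.00385 and 0.102 TPM in vehicle and at or below 0.0582 TPM with MCTR3. It was at 5, 6.18, 2.53 and 5.18 TPM with PCTR3 and 5.17, 5.3, 3.06 and 4.94 TPM with RCTR3. The PCTR3 and RCTR3 libraries lay far above the others, with a log2(TPM + 1) difference from vehicle of 2.39 in each (SE 0.20, limma adjusted p = 2.95e-05 with PCTR3 and 1.89e-05 with RCTR3). comp143519_c2_seq60, a minor transcript of its component, was at 1.32, 0.816, 0.0502 and 0.494 TPM in vehicle and 10.1, 6.17, 6.22 and 8.9 TPM with RCTR3, a difference of 2.44 (SE 0.41, limma adjusted p = 0.000639). comp144061_c0_seq16 was at 8.59, 6.96, 6.25 and 9.51 TPM in vehicle. It was at 0.547, 0.675, 1.36 and 0.000537 TPM with RCTR3 and below 1.5 TPM in all PCTR3 libraries, 1 of them listed at 0. Its differences were -2.57 with PCTR3 (SE 0.30, limma adjusted p = 0.000271) and -2.47 with RCTR3 (SE 0.30, limma adjusted p = 0.000136). Both calls ended on the deposited log2 scale, with adjusted p from 0.000143 to 0.0752 and from 8.33e-05 to 0.479 over the alternatives.

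No member transcript, and none of all 28431, passed the threshold between MCTR3 and vehicle or between PCTR3 and RCTR3 (limma, 0% called in each). At an unadjusted p under 0.05 there were 85 (7.78%) and 61 (5.59%) members' transcripts, given without the share over all transcripts. Without RCTR3 replicate 4, 1 was called between PCTR3 and RCTR3. For MCTR3 the lowest p was that of comp143035_c0_seq56, at 16.9, 15.5, 15.6 and 20.2 TPM in vehicle and 10, 10.8, 13 and 9.91 TPM with MCTR3, a difference of -0.60 (SE 0.12, limma adjusted p = 0.541) without overlap. The same transcript was at 10.2, 8.7, 10.8 and 9.3 TPM with PCTR3, where the difference was -0.74 (SE 0.12, limma adjusted p = 0.00079).

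Between MCTR3 and PCTR3, 27 member transcripts were higher and 40 lower with MCTR3, against 4.43% and 4.58% of all transcripts. Between MCTR3 and RCTR3, 55 were higher and 67 lower, against 7.86% and 7.48%. On the common sum the splits were 18 higher and 44 lower (all transcripts 2.85% and 6.11%), and 34 higher and 85 lower (4.77% and 11.3%). With median centring they were 40 higher and 34 lower (6.46% and 3.46%), and 76 higher and 49 lower (11.8% and 5.24%). These counts moved when single libraries were left out. The 67 calls became 39, 33, 30 and 27 without MCTR3 replicate 1, 2, 3 or 4 and 20 and 17 without PCTR3 replicate 1 or 2. The 122 calls became 78, 72 and 75 without MCTR3 replicate 2, 3 or 4 and 55 without RCTR3 replicate 1.

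comp145383_c1, the component with the most detected transcripts, held 2 of the transcripts named for these comparisons. comp145383_c1_seq5 was at 3.24, 5.25, 4.86 and 3.39 TPM with MCTR3 and 17.3, 35.3, 8.9 and 15.2 TPM with PCTR3, a difference of -1.82 (SE 0.37, limma adjusted p = 0.0129). comp145383_c1_seq56 was at 1.85, 0.527, 4.93 and 1.26 TPM with MCTR3 and 16.2, 8.41, 8.6 and 11.1 TPM with RCTR3, a difference of -2.08 (SE 0.45, limma adjusted p = 0.00859). In both cases the groups did not overlap, and vehicle was nearer to MCTR3, at 2.75, 3.15, 1.68 and 2.86 TPM and at 4.3, 6.36, 1.96 and 3.44 TPM. comp145183_c0_seq22 and comp144061_c0_seq16 were the transcripts named as higher with MCTR3 in both comparisons, with differences of 2.77 and 2.16 against PCTR3 and 3.92 and 2.06 against RCTR3. Except for comp145183_c0_seq22 against RCTR3, these calls ended on the deposited log2 scale (adjusted p up to 0.571). comp141430_c3_seq25 was also lower with MCTR3, with a difference of -2.45 against each.

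The division of a component's level among its transcripts was then examined as shares, which do not depend on a factor per library. In the 132 members with at least 5 TPM in every library, the mean effective number ran from 1.72 in comp136742_c0 to 16.1 in comp145249_c0, with a median of 6.18 against 5.36 in the 150 components next in size. It exceeded 10 in 18 members. The transcript with the highest mean share held between 15.1% and 88.7% of its component with a median of 39.7%, and over 50% in 36 members. In comp136742_c0, comp136742_c0_seq6 held 91.0% in vehicle, and in comp145249_c0 the leading transcript held 17.3%. Of the 5 members with the most transcripts, comp143519_c2 was dominated by comp143519_c2_seq27, with 88.1% in vehicle, whereas comp141430_c3 and comp145075_c1 had effective numbers of 12.2 and 12.7 in vehicle.

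The leading transcript was the same in all 4 vehicle libraries in 82 of the 132 members, in 84 for MCTR3, 75 for PCTR3 and 78 for RCTR3, and in all 16 libraries in 53. By group mean it differed from that of vehicle in 14 members with MCTR3, 27 with PCTR3 and 33 with RCTR3. In 0 members was 1 transcript the leader in every vehicle library and another the leader in every library of a compound group.

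Shares of 1061 transcripts were tested with limma after an arcsine square-root transformation. PCTR3 had 47 rising (4.43%) and 33 falling (3.11%), against 4.81% and 4.56% of all 17346 shares tested. RCTR3 had 61 rising (5.75%) and 66 falling (6.22%), against 6.79% and 6.65%. The 80 calls with PCTR3 became 39 without vehicle replicate 4, 40 without PCTR3 replicate 1 and 43 without PCTR3 replicate 2. The 127 with RCTR3 became 68 without vehicle replicate 4 and 71 without RCTR3 replicate 1. With MCTR3 against vehicle and between PCTR3 and RCTR3 no share was called (limma, 0% of all shares in each). At an unadjusted p under 0.05 there were 70 (6.6%) and 58 (5.47%) member shares, given without the percentage over all shares.

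The largest called rise in percentage points with PCTR3 was in comp145628_c0. Its transcript comp145628_c0_seq72 held 16.1, 23.5, 28.8 and 18.8% of the component in vehicle and 28.4, 28, 30 and 39% with MCTR3. PCTR3 gave 42.5, 57.5, 43.6 and 46.6% and RCTR3 58.8, 37.9, 39.3 and 48.3%. PCTR3 and RCTR3 did not overlap with vehicle, and the mean share differed by 25.7 percentage points with PCTR3 (limma adjusted p = 0.00602) and 24.2 with RCTR3 (limma adjusted p = 0.00538). The component's total also rose with both, by 0.63 and 0.57 on the log2(TPM + 1) scale (limma adjusted p = 0.000887 and 0.0014).

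In comp144061_c0 shares were exchanged between transcripts. comp144061_c0_seq29 held 45.8, 47.7, 44.7 and 36.5% in vehicle and 74.1, 59, 71.4 and 64.6% with PCTR3, a difference of 23.6 percentage points (limma adjusted p = 0.00286). With MCTR3 it held 55.2, 50.6, 53.5 and 54.6%, above every vehicle library but not called, and with RCTR3 60.7, 58, 58.1 and 69.4%. comp144061_c0_seq16 held 32.5, 28, 25.2 and 39.1% in vehicle, 15.7, 27.8, 24.8 and 17.6% with MCTR3, and at most 4.69% with PCTR3 and 4.75% with RCTR3. These are differences of -29.2 (limma adjusted p = 0.000841) and -28.9 percentage points (limma adjusted p = 0.000727). The total of the component changed by 0.15 with each compound (SE 0.051, limma adjusted p = 0.0291 with PCTR3 and 0.0205 with RCTR3). The PCTR3 call ended in 7 of 24 alternatives, among them median centring and leaving out vehicle replicate 2, 3 or 4 or PCTR3 replicate 2 or 4 (range 0.00125 to 0.0933), and the RCTR3 call without RCTR3 replicate 3 and with the fit limited to the groups compared (range 0.000334 to 0.0542).

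comp145098_c0_seq12 held 35.8, 37, 36.3 and 54% in vehicle and 14.4, 0, 6.18 and 29.1% with PCTR3. The fall of 28.4 percentage points passed the threshold narrowly (limma adjusted p = 0.0475) and failed it in 13 of 18 alternatives, among them each vehicle library left out and PCTR3 replicates 1, 2 and 3 left out, with adjusted p from 0.0228 to 0.136. With RCTR3 the share was 0, 0.649, 8.84 and 23.4% (limma adjusted p = 0.0174). Leaving out vehicle replicate 4 or RCTR3 replicate 1 ended that call, with a range of 0.00779 to 0.0581. comp145648_c3_seq31 held 42.2, 25, 44 and 34.8% in vehicle and 0, 22.7, 0 and 0% with RCTR3 (limma adjusted p = 0.0119). comp142729_c0_seq46 held 2.41% in vehicle replicate 1 and was listed at 0 in the other 3, and held 37.8, 29.1, 12.5 and 16.2% with RCTR3 (limma adjusted p = 0.0164). This call ended without RCTR3 replicate 1, with a range of 0.000622 to 0.0512.

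Among the members with many transcripts, comp141224_c1 kept its total while shares within it changed. comp141224_c1_seq73 held 28.1 ± 1.56% in vehicle and 25.8 ± 0.719% with MCTR3, and it held 18 ± 4.22% with PCTR3 and 17.1 ± 3.92% with RCTR3 (SD, n = 4). This was a difference of -10.1 percentage points with PCTR3 (limma adjusted p = 0.0224) and -11.0 with RCTR3 (limma adjusted p = 0.0113). Its leading transcript comp141224_c1_seq24 held 35.5 ± 2.32% in vehicle and 43.6 ± 4.63% with PCTR3 and did not pass (limma adjusted p = 0.0506). The PCTR3 call of comp141224_c1_seq73 ended without vehicle replicate 2, 3 or 4 or PCTR3 replicate 1 or 2 (adjusted p from 0.0116 to 0.0642). These transcripts were chosen after their values had been seen.

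**Figure D4:**
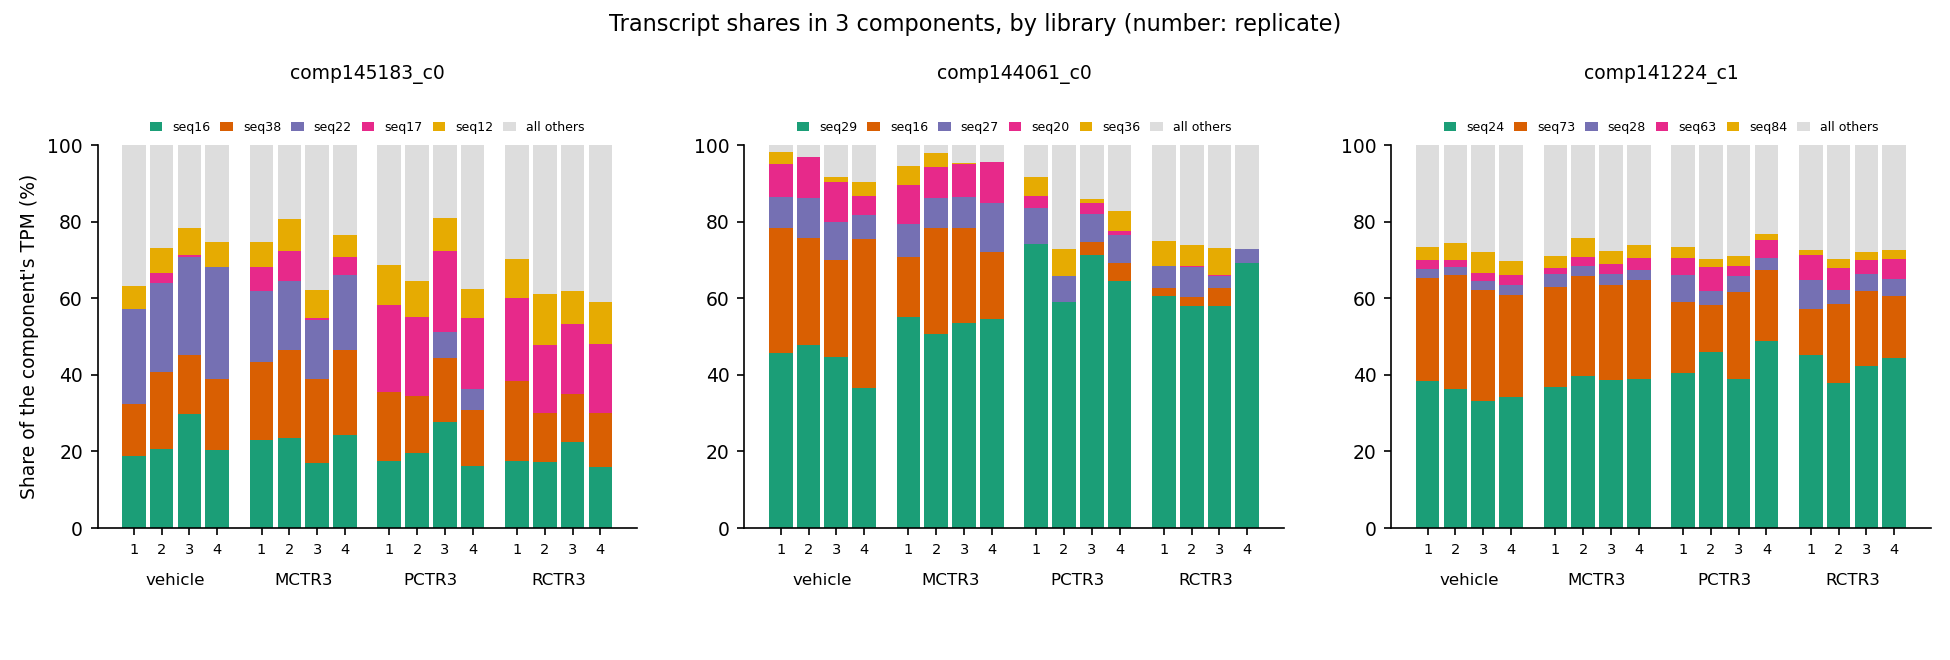
Bars are the 16 libraries and colours the shares, in percent of the component's TPM, of the 5 transcripts with the highest mean share in comp145183_c0, comp144061_c0 and comp141224_c1, chosen after their values had been seen. seq22 of comp145183_c0 and seq16 of comp144061_c0 are large in all vehicle and MCTR3 libraries and small or missing with PCTR3 and RCTR3, whereas seq17 of comp145183_c0 is the reverse.

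Between MCTR3 and PCTR3, 10 member shares were higher and 9 lower with MCTR3, against 0.871% and 0.905% of all shares, and between MCTR3 and RCTR3 22 were higher and 22 lower, against 2.48% and 2.55%. The 19 calls became 10, 11 and 9 without MCTR3 replicate 2, 3 or 4, 8, 9 and 12 without PCTR3 replicate 1, 2 or 4, and 39 without PCTR3 replicate 3. The 44 calls became 27, 23, 18 and 20 without MCTR3 replicate 1, 2, 3 or 4 and 14, 29 and 28 without RCTR3 replicate 1, 2 or 4. comp144876_c1_seq26 held 12.3, 6.09, 6.22 and 10.6% with MCTR3, 25.5, 37.3, 15.6 and 33% with PCTR3 and 31.9, 25.2, 17.9 and 26.5% with RCTR3 (limma adjusted p = 0.0282 and 0.0259). Each of these calls ended without MCTR3 replicate 2, 3 or 4 and without replicate 1, 2 or 4 of the other compound, with adjusted p up to 0.094 and 0.0815 and down to 0.00651 and 0.0109. comp139368_c1_seq7 held 30.2, 28.9, 32.1 and 42.5% with MCTR3 and 13.3, 19.5, 20.7 and 16.5% with PCTR3 (limma adjusted p = 0.0197), which ended without PCTR3 replicate 1 (range 0.0106 to 0.0603). comp143153_c2_seq28 held 31.4, 19.9, 36.8 and 19.7% with MCTR3 and 44.8, 58.9, 45.4 and 41.6% with PCTR3 (limma adjusted p = 0.0416). That call failed in 10 of 19 alternatives, among them the replicate block, vehicle replicate 1 or 2 left out, and replicate 1, 2 or 4 of MCTR3 or PCTR3 left out (range 0.0258 to 0.132).

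Against RCTR3, comp145098_c0_seq12 held 41.1, 45.6, 36.6 and 48% with MCTR3, above the RCTR3 shares given before (limma adjusted p = 0.0282), and comp142729_c0_seq46 was at most 0.0628% with MCTR3 (limma adjusted p = 0.0247). Both calls ended without MCTR3 replicate 2, 3 or 4 or RCTR3 replicate 1 or 2, and the first also without MCTR3 replicate 1, with adjusted p from 0.0147 to 0.0874 and from 0.00108 to 0.078. With PCTR3, comp142729_c0_seq46 held 28.3, 37, 0 and 27%.

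The effective number of transcripts rose in 5 and fell in 2 of 132 members with PCTR3, against 4.56% and 1.36% of 5595 components. With RCTR3 it rose in 17 (12.9%) and fell in 3 (2.27%), against 8.38% and 2.27%. With MCTR3 none was called among members or among all components (limma, 0%). At an unadjusted p under 0.05 there were 3 members (2.27%), given without the share over all components. The 7 calls with PCTR3 became 3 without vehicle replicate 3, 1 without PCTR3 replicate 1 and 0 without vehicle replicate 4 or without PCTR3 replicate 2. The 20 with RCTR3 became 12 without vehicle replicate 3 and 10 without vehicle replicate 4 or without RCTR3 replicate 4.

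comp129990_c0 spread over more transcripts with PCTR3. Its effective number was 3.51, 3.6, 2.77 and 3.21 in vehicle and 7.56, 6.47, 6.19 and 3.83 with PCTR3, a log2 difference of 0.84 (SE 0.21, limma adjusted p = 0.0338) that failed the threshold without any 1 of the vehicle libraries or of PCTR3 replicates 1, 2 and 3 (range 0.017 to 0.0954). comp143770_c4 was at 3.81, 4.24, 3.55 and 2.66 in vehicle and 5.54, 6.05, 5.36 and 4.98 with PCTR3 (0.64, SE 0.14, limma adjusted p = 0.0204). comp140775_c3 narrowed, from 11.3, 10.1, 10.4 and 11.8 in vehicle to 7.69, 7.23, 8.87 and 8.74 with PCTR3 (-0.42, SE 0.093, limma adjusted p = 0.0202) and 6.92, 7.61, 7.35 and 8.49 with RCTR3 (-0.52, SE 0.093, limma adjusted p = 0.00565). The PCTR3 calls of comp143770_c4 and comp140775_c3 ended without vehicle replicate 4 or PCTR3 replicate 1 or 2, with adjusted p up to 0.0683 and down to 0.00931 and 0.00817.

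comp139657_c0 was at 11.5, 10.4, 11 and 10.3 in vehicle and at 8.71, 8.38, 8.52 and 8.31 with RCTR3 (-0.34, SE 0.062, limma adjusted p = 0.00648). With MCTR3 it was at 9.27, 9.34, 9.14 and 7.85, below every vehicle library, and had the lowest p of that comparison without passing (-0.28, limma adjusted p = 0.414). With PCTR3 it was at 8.79, 9.48, 9.05 and 8.71 (-0.26, limma adjusted p = 0.0313). Leaving out vehicle replicate 1, 3 or 4 or PCTR3 replicate 1, 2 or 4 ended this call (range 0.0127 to 0.081). comp144804_c2 was at 3.84, 4.86, 4.64 and 5.78 in vehicle and 6.53, 7.05, 9.27 and 9.43 with RCTR3 (0.75, SE 0.20, limma adjusted p = 0.0285), which ended without vehicle replicate 1 or 3 or RCTR3 replicate 3 or 4 (range 0.0119 to 0.0727). comp145114_c0 was at 3.47, 3.33, 2.33 and 3.67 in vehicle and 5.63, 4.26, 12.4 and 5.55 with RCTR3, where replicate 3 stood apart. Its call was narrow (1.02, SE 0.30, limma adjusted p = 0.048) and failed in 14 of 18 alternatives, among them each vehicle library left out and RCTR3 replicates 1, 3 and 4 left out (range 0.0345 to 0.121).

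How far the share profiles of libraries differed was measured as the total variation distance, the percent of a component's TPM that would have to move between transcripts to turn one profile into the other. Replicates of the same group were far apart: the median over the 132 members was 18.7% between vehicle libraries, 19.4% for MCTR3, 20.7% for PCTR3 and 21.2% for RCTR3. In the 150 components next in size it was 17.7% between vehicle libraries, and in all other components with several transcripts it was 6.2%. Between groups the median was 20.6% for vehicle and MCTR3, 24.8% for vehicle and PCTR3, 25% for vehicle and RCTR3, and 21.2% for PCTR3 and RCTR3. For MCTR3 against PCTR3 and RCTR3 it was 22.9% and 24.3%. In the 150 components next in size it was 22.2% for vehicle and PCTR3 and 23.4% for vehicle and RCTR3, near the members' values.

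The distance between groups exceeded that within both groups in 83 of 132 members for vehicle and PCTR3 (62.9%, against 42.3% of other components) and in 79 for vehicle and RCTR3 (59.8%, against 44.6%). For vehicle and MCTR3 this was so in 31 members (23.5%, against 17.4%), and for PCTR3 and RCTR3 in 16 (12.1%, against 11.4%). These counts are descriptions without a test. Against vehicle, the largest excess over the mean of the within-group distances was in comp145183_c0, the component of the opposite transcript changes above. It was 24.6 percentage points for PCTR3 and 30.2 for RCTR3.

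**Figure D5:**
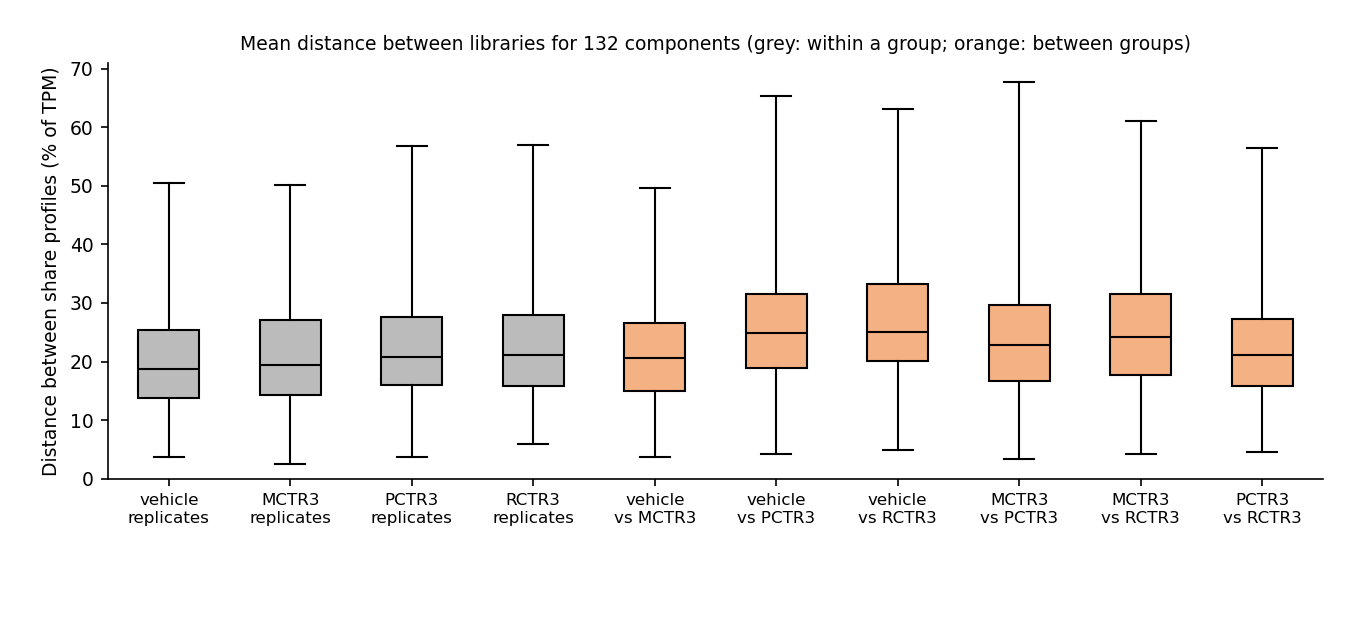
Boxes show the median and quartiles and whiskers the full range of the distance between share profiles, in percent of TPM, over 132 components; grey boxes compare replicates of a group and orange boxes libraries of different groups. Replicates of a group differ by medians of 18.7 to 21.2%, and vehicle against PCTR3 or RCTR3 by 24.8 and 25%.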

How the data were processed

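Polyadenylated RNA of 16 libraries was sequenced in paired-end mode. The deposited values are log2 TPM per transcript and library, which the authors made from reads and *D. japonica* transcript sequences, per the labels' protocols. Of tools, kallisto and sleuth are listed in the submitters' processing notes, with neither version nor role. A TPM of 0 is written as a floor of -34.92 and was set back to 0; TPM was 2 to the power of the value. Libraries sum to 926.1 to 1129 kTPM, so each carries a further factor, and the sources used here do not give its origin. Read depth is unknown.

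The members and lists were chosen with earlier results of these data known. Sample titles gave the groups and the numbering of replicates. None of 120 library pairs held identical values. limma 3.58.1 in R 4.3.3 fitted 4 group means to all 16 libraries with an intensity trend, two-sided, with Benjamini-Hochberg adjustment over all features tested and a threshold of 0.05. It was run on log2(summed TPM + 1) and log2(TPM + 1) of components and transcripts at 1 TPM or more in 4 or more libraries, on arcsine square-root shares of components with at least 5 TPM in every library, and on log2 effective numbers. The log2(TPM + 1) scale understates changes of low features. The code was tested on simulated data.

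Named members are the 5 with the most transcripts, the 2 with the highest level, those at the limit of membership and, per comparison and measure, up to 2 that rose and 2 that fell most among called members without overlap of the groups, or the lowest p where none was called. Further transcripts named as such were chosen after their values were seen. Alternatives were other scalings, pseudocounts, filters, indices, member numbers, a replicate block and leaving out each library. Figures were drawn with matplotlib 3.10.9.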

Additional observations from a re-analysis of the deposited data

Results flagged for a closer look

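Among 192 groups of 4 libraries examined, 20 had 1 library far from the other 3 relative to the range of the group. A chance rate of about 1 in 20 would apply to independent, normally distributed values. In several flagged groups all other libraries were at or near the floor, so any library with a level stood apart. The transcript comp141807_c0_seq4 was flagged both by its level and by its share. The count of flagged groups can therefore not be set against that rate. Among totals, comp146115_c0 stood at 8.05 TPM in MCTR3 replicate 1 (others 6.63 to 6.83), comp140768_c2 at 283 TPM in RCTR3 replicate 1 (249 to 252), comp141430_c3 at 50.7 TPM in MCTR3 replicate 4 (44.6 to 45.1) and comp145075_c1 at 16.5 TPM in PCTR3 replicate 3 (15.3 to 15.5).

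Among transcripts, comp145183_c0_seq17 was at 2.12 TPM in vehicle replicate 2 (others at most 0.354), comp141430_c3_seq25 at 0.0582 TPM in MCTR3 replicate 2 (at most 0.00198) and at 3.06 TPM in RCTR3 replicate 3 (4.94 to 5.3). comp141807_c0_seq4, which had the lowest p between PCTR3 and RCTR3 (limma adjusted p = 1), was at 0.573 TPM in vehicle replicate 1 and 1.27 TPM in MCTR3 replicate 1, and listed at 0 in the others of those groups. Its shares there were 3.49% and 7.01%.

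Among shares, comp145098_c0_seq12 held 54% in vehicle replicate 4 (others 35.8 to 37%). comp142729_c0_seq46 held 2.41% in vehicle replicate 1 and 0.0628% in MCTR3 replicate 2, with the others at or near 0. comp145648_c3_seq31 held 22.7% in RCTR3 replicate 2 and 0 in the other 3. comp144162_c0_seq2, the lowest p among shares for MCTR3 against vehicle (limma adjusted p = 0.718), held 2.77% in MCTR3 replicate 4, 1.24% in PCTR3 replicate 4 and 4.51% in RCTR3 replicate 1, each with the others below 0.001%. Among effective numbers, comp139657_c0 was at 7.85 in MCTR3 replicate 4 (9.14 to 9.34) and comp145114_c0 at 12.4 in RCTR3 replicate 3 (4.26 to 5.63).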

How the results depend on the processing

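Of 96 tests of named members, 71 were called and 43 were past the threshold under every alternative run. Many were named because they were called, and the alternatives use the same libraries, so these counts are no independent support. Over 2105 alternative values, 1943 kept direction and side of the threshold, 135 fell below it, 8 moved past it and 19 changed direction. All 19 belong to totals that were not called. On a common TPM sum the log2 difference became 0.11 for comp145075_c1 with PCTR3, 0.054, 0.097 and 0.0052 for comp141224_c1 with PCTR3, RCTR3 and MCTR3, and 0.051 for comp140066_c4 with MCTR3, and with median centring -0.010 for comp145075_c1 with RCTR3. With single libraries left out it ran from -0.014 to 0.10, -0.027 to 0.096 and -0.038 to 0.072 for comp144978_c3 with PCTR3, RCTR3 and MCTR3, from -0.065 to 0.14 and -0.031 to 0.12 for comp142580_c1 with PCTR3 and MCTR3, from -0.0021 to 0.016 for comp145075_c1 with RCTR3, and from -0.043 to 0.011 for comp140066_c4 with MCTR3. Replicate numbers did not pair the libraries: correlations of same-numbered deviations ran from -0.242 to 0.37, with 8 of 24 over 0.1, and 2 of 16 libraries were closest to their own number. With a replicate block, calls against vehicle were 52 (PCTR3) and 61 (RCTR3) for totals, 172 and 229 for transcripts, 75 and 125 for shares and 6 and 18 for effective numbers, and no count moved by over 1.5 times.

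The values for vehicle, MCTR3, PCTR3 and RCTR3 moved as follows. The share of TPM was 0.802, 0.822, 0.840 and 0.852% when the 100 most abundant transcripts were left out of the total, 0.430, 0.443, 0.447 and 0.456% for 100 components and 0.708, 0.735, 0.764 and 0.783% for 200. Summed TPM, an alternative added after seeing the data, was 4577, 4487, 4356 and 4342 for 100 components and 7528, 7445, 7438 and 7457 for 200. Transcripts detected were 1774.75, 1788, 1810.25 and 1818 at 0.1 TPM and 249, 252.75, 256 and 257.5 at 5 TPM, and 894.25 for RCTR3 on a common sum. The median inverse Simpson index was 4.21, 4.05, 4.27 and 4.50, and the Hellinger distance between replicates 24.5, 25.9, 27.6 and 27.3.

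With 100 components, totals called were 32 (PCTR3), 35 (RCTR3) and 19 (MCTR3 against RCTR3). Transcripts called were 116 (PCTR3), 31 (MCTR3 against PCTR3) and 66 (MCTR3 against RCTR3) on the deposited log2 scale and 98 (PCTR3), 126 (RCTR3) and 76 (MCTR3 against RCTR3) with a filter of 5 TPM. With no filter, 1 was called for MCTR3. Effective numbers called with PCTR3 were 11 by the Simpson index and 12 with a minimum of 20 TPM. Fewer members were counted with 100 components and fewer transcripts were tested at 5 TPM, so these counts do not give rates. Beyond that, the cause of the moves was not tested.

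Leaving out each library gave ranges of 8 to 32 and 20 to 39 totals for MCTR3 against PCTR3 and RCTR3. For transcripts they were 118 to 189 (PCTR3), 17 to 98 and 55 to 132 (MCTR3 against PCTR3 and RCTR3) and 0 to 1 (PCTR3 against RCTR3). For shares they were 39 to 100 (PCTR3), 68 to 136 (RCTR3), 8 to 39 and 14 to 48 (MCTR3 against PCTR3 and RCTR3), and for effective numbers 0 to 9 (PCTR3) and 10 to 21 (RCTR3). The median distance between replicates was 19.3 to 20.4 for MCTR3 and 19.8 to 22.8 for RCTR3. Depth is unknown, so no limit of detection is given.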
